A study of Sus scrofa with 4 samples.

Results

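SPP1, WFDC2, TCN1, CFD, MUC13 and GPRC5A are 6 genes of secretory epithelium, followed here in porcine pancreatic ductal organoids (PPDO) and in dissociated primary porcine pancreas. They are 6 of 30282 genes counted, and all 6 were found in the matrices after every feature of a gene, 3' extensions included, had been summed. The genes were chosen from measured values of these same libraries, and which values were used is not recorded. Their levels by PPDO cluster and their co-detection in PPDO are taken as used by the choice and are given as descriptions, with no test. Droplet-based single-cell RNA sequencing had been performed on 2 PPDO libraries and 2 libraries of primary pancreas, called PPDO 1, PPDO 2, primary pancreas 1 and primary pancreas 2. PPDO are cultures grown from picked pancreatic ducts in a basement membrane extract. The study took them from a late postnatal and an adult pig at different passages, and neither library is tied to a pig by its label. By the paper's account most cells had by then moved to a less mature ductal phenotype, which it does not describe for early passages. Their complete medium held N2, B27 without vitamin A, A83-01 (an inhibitor of TGF-beta receptors), prostaglandin E2, WNT3a, R-spondin1 and noggin. It also held FGF10, EGF, gastrin, Y-27632, nicotinamide and N-acetylcysteine. To maintain PPDO, an L-WRN conditioned medium supplement took the place of WNT3a, R-spondin1 and noggin. The primary libraries came from a wild-type pig and an INS-eGFP pig of the same postnatal age, processed on separate days. The first was enriched for ducts by hand, and the second pooled sorted DBA-binding duct cells, sorted INS-eGFP cells and whole suspension, so the shares of classes were set by these choices. The labels do not tie either primary library to a pig, and it is assumed here that library 1 is the first and library 2 the second. Transgene features held 164 UMIs in primary pancreas 1 and 10390 in primary pancreas 2, which goes with this order. With 2 libraries a group, culture, pig, sort and day of processing cannot be told apart, and the p-values measure only the spread between these libraries.

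SPP1 (osteopontin) is a secreted, phosphorylated glycoprotein that binds integrins and CD44, and it is widely used to mark pancreatic and biliary duct cells. WFDC2 (HE4) is a small secreted protein with whey acidic protein domains, a fold shared with several protease inhibitors of mucosal surfaces. TCN1 (haptocorrin) is a secreted carrier of vitamin B12, and CFD (adipsin) is the serine protease that cleaves factor B in the alternative pathway of complement. MUC13 is a membrane-bound mucin of apical epithelial surfaces. GPRC5A is an orphan receptor with 7 membrane spans whose transcript is induced by retinoic acid. On the Sscrofa11.1 assembly (RefSeq annotation) SPP1 lies on chromosome 8 at 131077786 to 131085334 and WFDC2 on chromosome 17 at 47816452 to 47824087. TCN1 and CFD lie on chromosome 2, at 11633377 to 11646261 and at 77509792 to 77511988. MUC13 is on chromosome 13 at 135416709 to 135446337 and GPRC5A on chromosome 5 at 59565793 to 59586641. All 6 are annotated as protein coding.

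PPDO 1 and PPDO 2 had median depths of 35310 and 35127 unique molecular identifiers (UMIs, counted molecules) per barcode, against 8592 and 7402 in primary pancreas 1 and 2. After filtering 8885, 7337, 5676 and 4274 cells remained. Libraries shared between 10 and 23 cell barcodes. Because a deeper cell is more likely to show a UMI of any gene, shares of cells were measured after each cell had been thinned to 3000 UMIs. Levels are counts per 1000000 UMIs (CPM) over the summed cells of a library, and the method counts 3' ends, so a CPM is not divided by transcript length and levels of different genes are not ranked against each other.

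Across all PPDO cells the 6 genes were sparse. SPP1 was at 20.2 and 20.1 CPM in PPDO 1 and PPDO 2, and it was found in 2.79% (95% exact Clopper-Pearson interval 2.45 to 3.15) and 2.42% (2.08 to 2.79) of thinned cells. WFDC2 was at 23.0 and 8.89 CPM, in 4.30% (3.88 to 4.74) and 2.32% (1.99 to 2.69) of cells. These intervals cover counting error only. The SPP1 levels of the 2 libraries were nearly equal, whereas WFDC2 was more than 2-fold higher in PPDO 1. TCN1 was at 41.5 and 33.7 CPM (5.86% and 3.82% of cells), CFD at 19.5 and 5.52 CPM (2.56% and 1.11%). MUC13 was at 3.60 and 1.32 CPM (0.657% and 0.368%), and GPRC5A at 38.5 and 51.6 CPM (7.05% and 10.1%). GPRC5A was the gene found in the most cells in both libraries, MUC13 in the fewest. WFDC2, TCN1, CFD and MUC13 were higher in PPDO 1 and GPRC5A was higher in PPDO 2. Without thinning the shares rose to between 2.52% (MUC13, PPDO 2) and 36.7% (GPRC5A, PPDO 2), which shows how strongly they follow depth.

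Much of this signal came from few cells. The 89 cells richest in SPP1, the top 1% of PPDO 1, held 66.5% of its SPP1 UMIs, and the top 1% of PPDO 2, 73 cells, held 72.1%. For CFD the same fraction held 73.3% and 72.1% of UMIs and for MUC13 76.2% and 67.6%. TCN1 (46.6% and 54.5%), WFDC2 (41.8% and 37.98%) and GPRC5A (31.4% and 24.6%) were spread more widely. The richest single PPDO cells held 199 and 291 UMIs of SPP1, 246 and 475 UMIs of TCN1 and 705 and 76 UMIs of CFD in PPDO 1 and PPDO 2. The CFD cell of PPDO 1 alone held 12.01% of the CFD UMIs of its library, and without it, a step added after the data had been seen, CFD was at 17.2 CPM there. Among PPDO 1 cells with any SPP1, 50% had just 1 UMI.

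PPDO cells were clustered on variable genes from which the 6 genes had been left out, giving 9 clusters that were named only from marker lists that do not contain them. All 6 genes were highest in cluster 7 in both libraries, a cluster of 324 and 193 cells (3.65% and 2.63% of cells) that was named ductal-like, with 6 of 7 matched duct markers passing the naming limits. SPP1 reached 328 and 476 CPM there in PPDO 1 and PPDO 2, against 7.40 and 8.68 CPM in the other cells, ratios of 44.4 and 54.9. WFDC2 was at 296 and 157 CPM in cluster 7 and at 11.7 and 5.18 CPM elsewhere, ratios of 25.4 and 30.4. TCN1 was at 548 and 826 CPM, CFD at 321 and 130 CPM, MUC13 at 67.8 and 30.1 CPM and GPRC5A at 335 and 373 CPM. Their ratios over the other cells ranged from 8.55 (GPRC5A, PPDO 2) to 72.0 (MUC13, PPDO 1). In thinned cluster 7 cells SPP1 was found in 36.1% and 39.9%, WFDC2 in 38.6% and 28.0%, TCN1 in 50.8% and 64.2% and GPRC5A in 44.5% and 47.7%. The cluster held 64.8% and 57.8% of all SPP1 UMIs and 51.3% and 43.1% of WFDC2 UMIs, but 34.6% and 17.6% of GPRC5A UMIs. Its median cell had 37256 and 31559 UMIs against 34006 and 34505 in the other clusters, and 3 and 5 of its cells passed the Scrublet score of 0.25. That was 0.926% and 2.59% of its cells, against 1.62% and 1.09% in the other clusters, so the share was higher in PPDO 2 only.

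**Figure D1:**
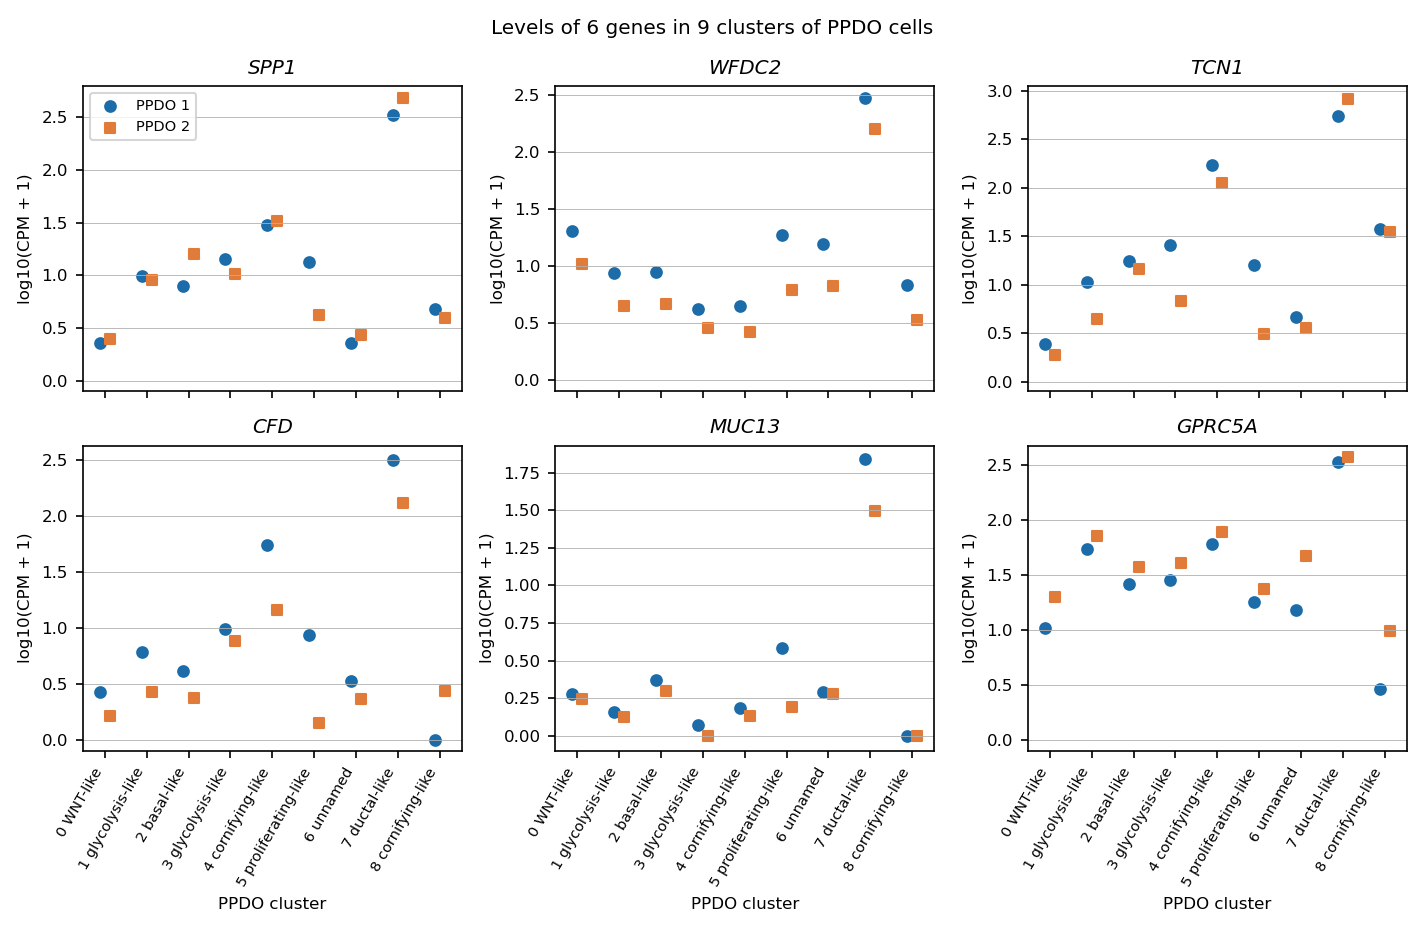
Level of each gene as log10(CPM + 1) in the 9 PPDO clusters, with circles for PPDO 1 and squares for PPDO 2 (1 point per library, axes differ between panels). Every gene peaks in cluster 7, while TCN1 and CFD have a second maximum in cluster 4 and WFDC2 is lowest in clusters 3 and 4.

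Outside cluster 7 the genes parted. TCN1, CFD, SPP1 and GPRC5A came second in cluster 4, a cornifying-like cluster marked by IVL, KRTDAP and SPINK5, genes of the outer layers of stratified epithelium. TCN1 stood at 172 and 110 CPM there, in 25.9% and 15.03% of thinned cells, and CFD at 53.9 and 13.4 CPM. The CFD level of cluster 4 in PPDO 1 rested on 1 cell, the one with 705 UMIs, and without the richest cell of each library it was 16.3 and 9.98 CPM, still the second level but near that of cluster 3 (8.74 and 6.58 CPM). TCN1 was at 89.2 CPM in cluster 4 of PPDO 2 without its richest cell. SPP1 was at 29.2 and 31.6 CPM, and GPRC5A at 59.6 and 77.4 CPM. The GPRC5A range of cluster 4 overlapped that of cluster 1 (53.8 and 70.2 CPM), a glycolysis-like cluster, although cluster 4 was the higher within each library. WFDC2 had another second place, cluster 0, the WNT-like cluster with LGR6 and LEF1, at 19.1 and 9.27 CPM, higher within each library than the proliferating-like cluster 5 (17.5 and 5.12 CPM) though the ranges overlapped, and it was at 3.47 and 1.61 CPM in cluster 4. MUC13 had no second site and stayed at or under 2.83 CPM outside cluster 7. There were 14.8 and 6.29 UMIs of WFDC2 for each UMI of SPP1 in cluster 0, and 0.119 and 0.0511 in cluster 4. In thinned cluster 0 cells the share with a UMI was also lower for SPP1 (0.464% and 0.195%) than for WFDC2 (5.26% and 2.63%). By that share WFDC2 in PPDO 2 was slightly higher in clusters 6 (unnamed, 2.75%) and 5 (2.68%) than in cluster 0. In PPDO 1 it was at 3.53% in cluster 6 and 5.04% in cluster 5. The deposited counts are not corrected for free RNA, and its part in the levels outside cluster 7 was not tested.

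The duct markers that named cluster 7 set a scale for it. KRT7, a keratin of simple ducts, was at 1659 and 1878 CPM in cluster 7, at 336 and 347 CPM in the other PPDO cells and at 550 and 595 CPM in primary ductal-like cells. CFTR, the chloride channel of duct secretion, was at 9.85 and 10.3 CPM in cluster 7, at 0.678 and 0.395 CPM in the other PPDO cells and at 953 and 804 CPM in primary ductal-like cells. SCTR, the secretin receptor, and SOX9, a duct transcription factor, were likewise higher in cluster 7 than elsewhere in PPDO (13.9 and 7.51 CPM for SCTR, 16.1 and 9.24 CPM for SOX9) and far below primary ductal-like cells (579 and 967 CPM for SCTR, 322 and 354 CPM for SOX9). The levels of SPP1 and WFDC2 in cluster 7 came nearer to the primary levels than those of CFTR, SCTR and SOX9 did. Basal markers were also present in cluster 7, with KRT5 at 1899 and 2965 CPM, KRT15 at 991 and 1551 CPM and TP63 at 398 and 438 CPM. ITGA6 was at 926 and 1285 CPM, ITGB4 at 452 and 384 CPM and COL17A1 at 773 and 754 CPM. Only cluster 3 had less KRT5 than cluster 7. The name ductal-like thus stands for a rise of duct markers in cells that also had basal transcripts.

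Over the 9 clusters the genes fell into profiles of different shape, as described by the Pearson correlation of log2(CPM + 1) within each library. All clusters come from the same 2 libraries and all 6 profiles share the peak in cluster 7, so the values only describe likeness. Partners were genes with a mean of at least 10 CPM over the clusters, which a gene could reach through cluster 7 alone. MUC13 did not reach it and so was no partner. SPP1 was most like CFD (r = 0.93 and 0.94 in PPDO 1 and PPDO 2), PLLP (0.90 and 0.94) and CLDN7 (0.89 and 0.97), the last a tight junction claudin. Among these partners WFDC2 was most like TFF3, a trefoil peptide of mucous cells (0.94 and 0.96), MDK (0.94 and 0.97) and FBXO2 (0.92 and 0.91). MDK is the secreted growth factor midkine. The likeness of WFDC2 to MUC13 (0.95 and 0.97) was higher than to TFF3. TCN1 was most like CYP4B1 (0.94 and 0.94), MAL (0.90 and 0.93) and S100A1 (0.90 and 0.93). CFD was most like SPP1, CLDN7 (0.92 and 0.92) and SPINT2 (0.91 and 0.90), an inhibitor of membrane-bound serine proteases. MUC13 was most like WFDC2 (0.95 and 0.97), ZDHHC2 (0.93 and 0.92) and KRT8, a keratin of simple epithelia (0.92 and 0.94). GPRC5A was most like STX7 (0.96 and 0.95), ITPRID2 (0.94 and 0.94) and LIPH (0.93 and 0.94). WFDC2 and TCN1 were the least alike among the members (0.36 and 0.53).

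In PPDO the genes were found together in the same cells more often than the product of their shares. SPP1 and WFDC2 shared 65 of 8824 thinned cells in PPDO 1 and 31 of 7327 in PPDO 2, which is 6.15 and 7.55 times the product. All 15 pairs lay above a ratio of 1 in both libraries. The lowest ratios were those of WFDC2 with GPRC5A (2.73 and 2.27) and the highest those of CFD with MUC13 (12.8 and 26.8). The 5 pairs with GPRC5A were the 5 lowest by mean ratio. The size of the ratio followed depth, with a mean for SPP1 and WFDC2 of 11.3 at 1000 UMIs, 6.85 at 3000, 3.64 at 10000 and 1.84 without thinning. Most of the joint cells were cells of cluster 7, which held 57 of the 65 and 27 of the 31 cells with SPP1 and WFDC2. Without cluster 7, 8 and 4 such cells remained, at ratios of 2.05 and 2.46, an alternative that was chosen after the data had been seen. Inside cluster 7 the ratio of SPP1 with WFDC2 was 1.272 and 1.253, and over all pairs it ranged from 0.839 (CFD with GPRC5A, PPDO 2) to 2.57 (CFD with MUC13, PPDO 2). A ratio has a ceiling set by the larger share of its pair. The genes were found in more of the cells of cluster 7, so its ceilings were lower than those of all cells.

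**Figure D2:**
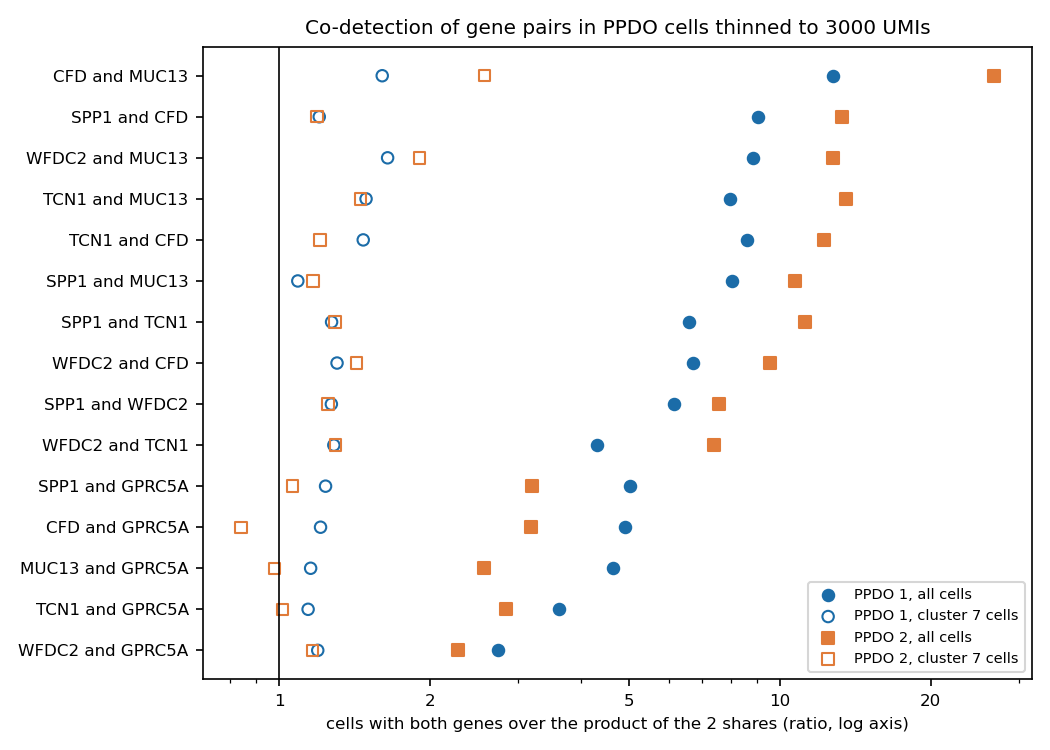
Ratio of the share of cells with both genes to the product of the 2 shares (log axis) for 15 pairs, in thinned PPDO cells. Filled symbols are all cells and open symbols cluster 7 cells, circles PPDO 1 and squares PPDO 2, and the line at 1 marks the product. All filled symbols lie to the right of it and most open symbols lie near it, where higher shares also set a lower ceiling on the ratio.

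Counted per cell, 83.5% and 84.1% of thinned PPDO cells had none of the 6 genes. At least 3 of them were found in 143 cells of PPDO 1 and 84 cells of PPDO 2, and 87.4% and 88.1% of those were cells of cluster 7. All 6 genes were found in 2 cells of each library at this depth. In primary ductal-like cells 59.3% and 48.1% had 3 of the genes, since SPP1, WFDC2 and CFD were common there and the other genes rare. The ratio of SPP1 with WFDC2 was 1.05 in each primary library, close to the product of their shares. With SPP1 in 91.3% and 83.7% of these cells the ratio could hardly exceed 1, so it is not set against the PPDO ratios.

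**Figure D3:**
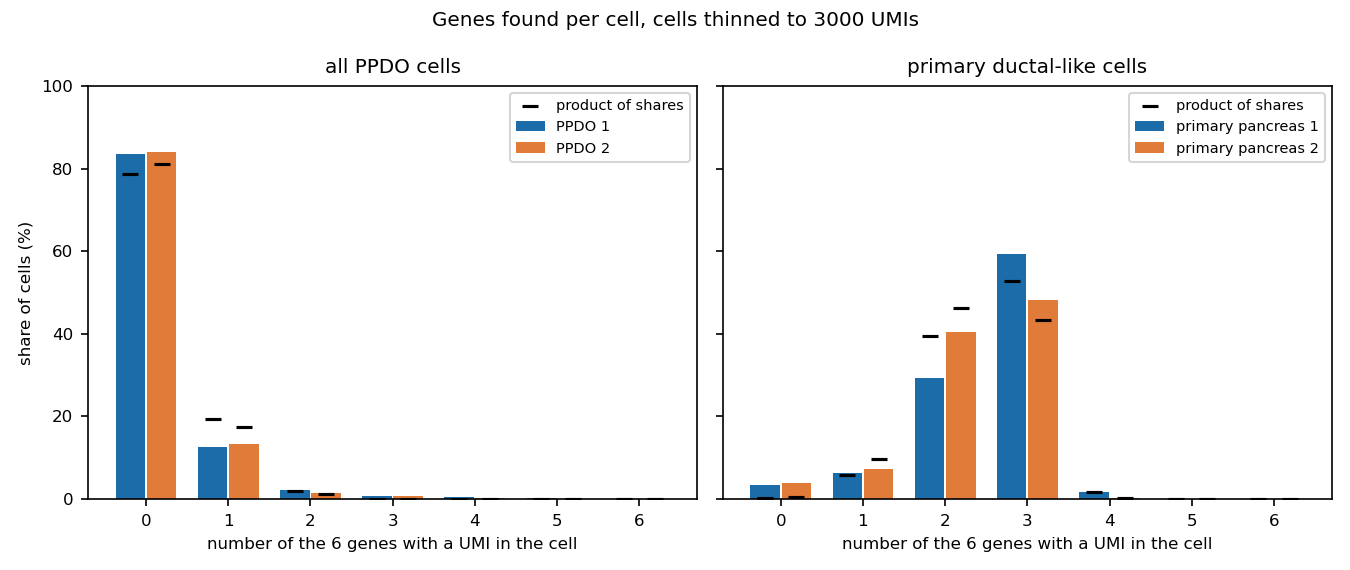
Share of thinned cells (%) in which 0 to 6 of the genes had a UMI, in all PPDO cells (left) and primary ductal-like cells (right), as bars for each library. Black marks give the share from the product of the single shares; 83.5% and 84.1% of PPDO cells had none of the genes, whereas 3 was the most frequent number in primary ductal-like cells.

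The other genes of the cells with both SPP1 and WFDC2 were then compared with those of the cells with neither, 65 against 8264 cells in PPDO 1 and 31 against 7011 cells in PPDO 2. With 5 CPM added, 409 of 11261 genes considered (3.63%) were at least 2-fold higher in both libraries and 386 (3.43%) at least 2-fold lower. A gene was considered where it reached 10 CPM in either set of cells of a library, so it could enter through the joint cells alone. The joint cells share their selection with the rule, so these values are a description. The other 4 members were all higher, with TCN1 at 923 and 1710 CPM against 24.04 and 20.4 CPM, and MUC13 at 103 and 75.3 CPM against 1.53 and 0.951 CPM. Of the secretory epithelium list, 8 of 11 genes considered were higher and none was lower. They include AGR2, a disulfide isomerase of mucin-making cells (231 and 387 CPM against 84.4 and 91.5 CPM), TFF3 (169 and 172 CPM against 16.6 and 7.32 CPM) and the chaperone CLU (554 and 333 CPM against 142 and 69.2 CPM). GCNT3, CREB3L1 and LGALS4, also higher, reached 10 CPM only in the joint cells, so they could not have come out lower. Of the duct markers KRT7, CFTR, SOX9 and SCTR, 4 of 7 considered, were higher. CFTR, SOX9 and SCTR likewise reached 10 CPM only in the joint cells and could not have come out lower. SCTR was at 10.3 and 10.8 CPM against 0.484 and 0.571 CPM. Among the SPP1 receptors 1 of 7 was higher, ITGB6, which pairs with ITGAV in an epithelial integrin (113 and 161 CPM against 13.1 and 18.4 CPM). Of the 4 genes considered from a list of protease inhibitors, the whey acidic protein genes SLPI and WFDC1 were lower. SLPI was at 15.4 and 43.0 CPM against 126 and 275 CPM. SPINT1 and SPINT2, also considered, have no whey acidic protein domain and did not pass 2-fold in both libraries. The basal markers KRT5 (579 and 1441 CPM against 4916 and 7182 CPM) and TP63 were lower, 2 of 6, as were 4 of 8 WNT markers (LGR6, LGR5, LEF1 and AXIN2) and 5 of 9 cornifying markers. The kallikrein KLK7 was the 1 cornifying gene that was higher. The 11 glycolysis genes considered had no member past 2-fold in both libraries. A single UMI in the joint cells was worth 5.13 and 10.8 CPM. The low values, LGR5 at 0 in both libraries among them, therefore rest on few molecules, as do those of SCTR and CREB3L1. An SPP1 and WFDC2 cell had a median depth of 38941 and 23892 UMIs before thinning against 34208 and 34500 for cells with neither.

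In the primary libraries 2163 cells of primary pancreas 1 (38.1%) and 1172 cells of primary pancreas 2 (27.4%) were ductal-like. Different clusters made up the class in the 2 libraries, clusters 0, 7 and 8 in primary pancreas 1 (with 1 cell of cluster 1) and clusters 1 and 23 in primary pancreas 2, and SPP1 ranged from 109 CPM in cluster 23 to 1909 CPM in cluster 0. SPP1 was at 1749 and 861 CPM in ductal-like cells and was found in 91.3% and 83.7% of thinned cells. The lowest class was endocrine-like, with SPP1 at 6.51 and 3.43 CPM and in 4.11% and 1.45% of thinned cells, at median depths before thinning of 12878 and 39409 UMIs against 17830 and 20545 in ductal-like cells. WFDC2 was at 496 and 307 CPM in ductal-like cells, in 63.3% and 55.2% of cells, against 3.65 and 2.73 CPM in endothelial-like cells. CFD was at 2565 and 2140 CPM, in 92.2% and 93.9% of cells. These 3 genes were common in the class as a whole in both libraries. Within it WFDC2 was found in 14.5% of thinned cluster 8 cells. In thinned cluster 23 cells SPP1, WFDC2 and CFD were found in 17.2%, 3.13% and 21.9%. TCN1 (4.36 and 0.7997 CPM), MUC13 (2.94 and 0.920 CPM) and GPRC5A (6.95 and 0.840 CPM) were in 0.171% to 1.41% of thinned ductal-like cells. Over all barcodes of primary pancreas 2, 63 of 100 GPRC5A UMIs came from the 3' extension feature, against at most 15.4% in the other libraries.

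**Figure D4:**
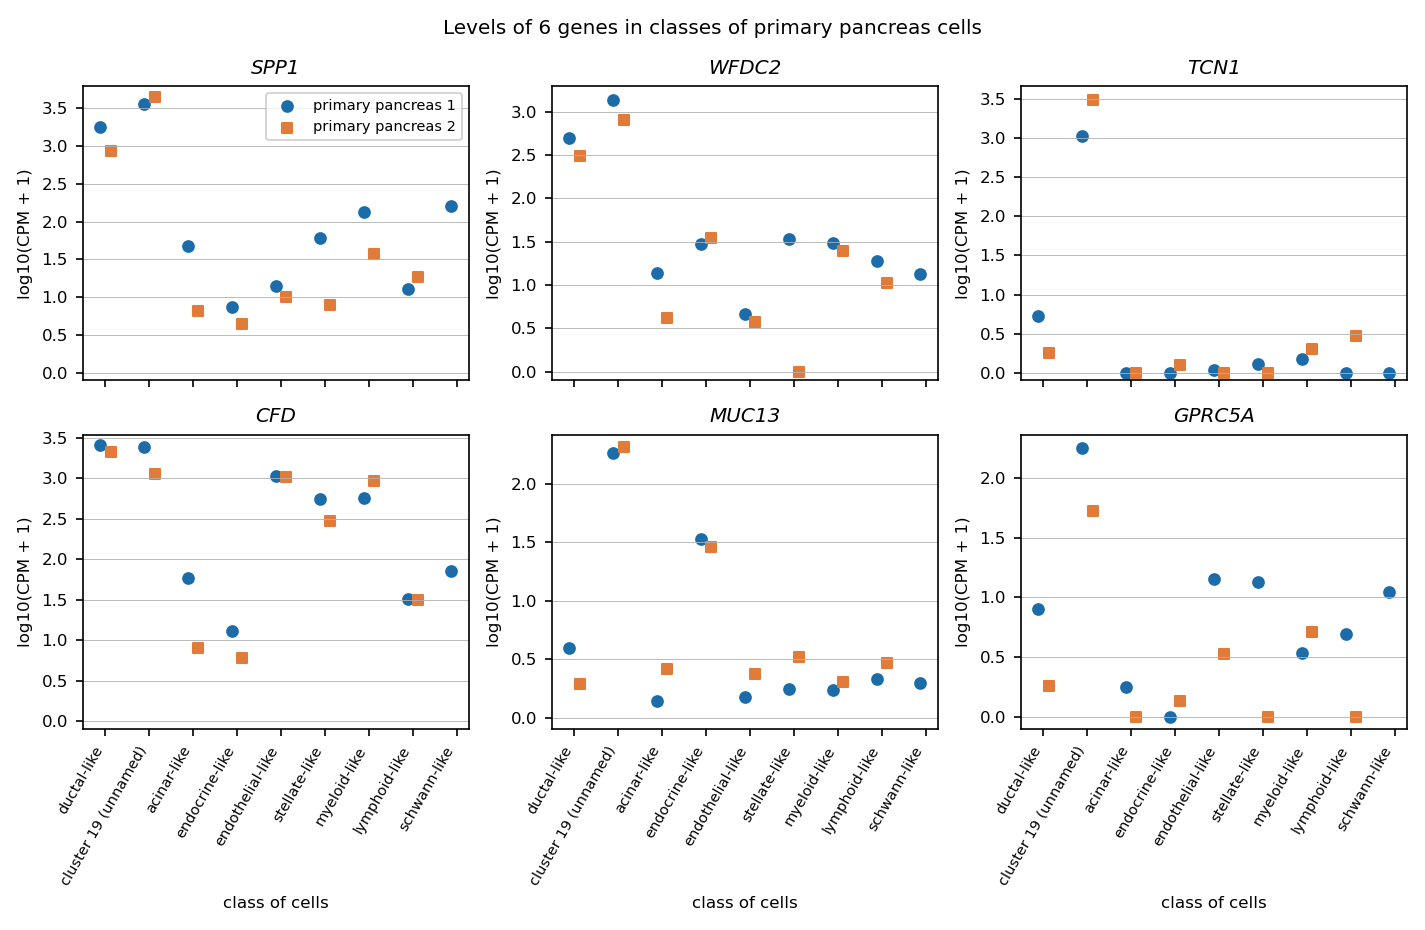
Level of each gene as log10(CPM + 1) in named classes of primary pancreas cells and in the unnamed cluster 19, with circles for primary pancreas 1 and squares for primary pancreas 2 (1 point per library with at least 10 cells, axes differ between panels). SPP1, WFDC2 and CFD are high in ductal-like cells, CFD also in endothelial-like, stellate-like and myeloid-like cells, MUC13 in endocrine-like cells, and TCN1 is near 0 outside cluster 19.

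Among the named classes SPP1 was followed by schwann-like cells (159 CPM in primary pancreas 1, with a single cell in primary pancreas 2) and myeloid-like cells (131 and 35.98 CPM), and from myeloid-like to endothelial-like cells the ranges of neighbours in the order overlapped. CFD was not confined to ducts. It stood at 1074 and 1046 CPM in endothelial-like cells, where 82.6% of thinned cells of each library had it, and at 576 and 937 CPM in myeloid-like cells. Stellate-like cells had 551 and 295 CPM, which stood for 2 unlike clusters. Cluster 11, led by DCN and LUM, was at 1136 and 1757 CPM (the latter from 7 cells with 121 of the 128 UMIs of the class), and the larger cluster 6, led by ITIH4, MYH11 and ACTA2, was at 48.8 and 19.2 CPM. Endocrine-like cells had 11.8 and 5.07 CPM and 2.74% and 2.08% of cells. The endothelial and myeloid levels did not overlap, and both lay above the endocrine level in each library. Adipocytes, the cells for which adipsin is named, formed no class here.

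MUC13 had its highest level among the named classes in endocrine-like cells, at 33.1 and 28.2 CPM, above ductal-like cells in both libraries. It was found in 8.22% and 8.86% of thinned endocrine-like cells, and the cluster led by INS (cluster 2 at 32.2 and 27.0 CPM) and the cluster led by SST, GCG and PPY (cluster 5 at 30.7 and 44.2 CPM) both had it. In primary pancreas 1 endocrine-like cells were 1.78% of cells and held 16% of the MUC13 UMIs, 56 of them. Cluster 2 had 9 of these in 11 cells. In primary pancreas 2 endocrine-like cells held 95.0% of the MUC13 UMIs, 2411 of them. They were 51.8% of the cells of primary pancreas 2 and held 85432946 of its 118680820 UMIs of all genes. WFDC2 was at 29.0 and 33.7 CPM in endocrine-like cells, which was 26.2% of the WFDC2 UMIs of primary pancreas 2. That range overlapped those of myeloid-like cells (29.2 and 23.6 CPM) and stellate-like cells (33.0 and 0 CPM), and the part of free RNA in these levels was not tested. For each library the UMIs of SPP1 were fewer than those of WFDC2 in endocrine-like cells and more in ductal-like cells. GPRC5A was at 13.2 and 2.39 CPM in endothelial-like cells, on 159 and 7 UMIs. Most of these came from cluster 18, led by SEMA3G and TMEM100, with 108 and 4 UMIs (65.1 and 16.9 CPM) in 149 and 21 cells, while the endothelial-like clusters 4 and 13 had 3.67 and 7.94 CPM in primary pancreas 1 and clusters 16 and 13 had 0.965 and 1.75 CPM in primary pancreas 2. For GPRC5A each class overlapped its neighbour in the order, although endothelial-like and myeloid-like cells (2.43 and 4.11 CPM) lay above endocrine-like cells (0 and 0.375 CPM) and acinar-like cells (0.794 and 0 CPM) in their whole range. TCN1 was not detected in acinar-like cells of either library.

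A further cluster of primary cells had UMIs of all 6 genes. Cluster 19 held 149 cells of primary pancreas 1 (2.63%) and 17 of primary pancreas 2 (0.398%). It was led by TCN1, TM4SF20, S100A2 and LGR5 among other genes, and 5 of 7 duct markers passed, but it took no name. The rule left unnamed a cluster with a low depth relative to its libraries (a ratio under 0.333, here 0.135, with a median of 1371 UMIs) and no marker of the list among its 10 leading genes, and both held here. With doublets kept and with the members among the clustering genes, the clusters led by TCN1 (372 and 461 cells) were deeper, at ratios of 0.559 and 0.518, and were named ductal-like. It held 847 TCN1 UMIs in primary pancreas 1, 81.4% of the total there, and 1152 in primary pancreas 2, 96.0% of the total. These UMIs came from 15 cells of each library. The cluster was uneven, since 118 of its primary pancreas 1 cells had under 3000 UMIs each and not 1 UMI of TCN1, MUC13 or GPRC5A among 138091 UMIs. Its 31 and 17 deeper cells, with median depths of 20882 and 22825 UMIs, had TCN1 at 1295 and 3115 CPM, SPP1 at 3685 and 4372 CPM, and WFDC2 at 1319 and 800 CPM. They had CFD at 1504 and 1127 CPM, MUC13 at 225 and 205 CPM and GPRC5A at 213 and 51.4 CPM. Before thinning, MUC13 was found in 74.2% and 94.1% of them and GPRC5A in 45.2% and 41.2%. In the 15 TCN1 cells of each library SPP1 and WFDC2 were found in all, and MUC13 in all of primary pancreas 1 and 93.3% of primary pancreas 2. Cluster 7 of PPDO had lower SPP1, WFDC2, TCN1, CFD and MUC13 than the 31 and 17 deeper cells in both libraries and higher GPRC5A.

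Counts summed over PPDO cells and over primary ductal-like cells were fitted for all genes with edgeR (quasi-likelihood test, Benjamini-Hochberg at 0.05). The question was how far these passaged organoids, summed over all their cells, have the levels of duct cells in the organ. Cluster 7 was only 3.65% and 2.63% of the PPDO cells summed. The mix of cells and the level per cell therefore cannot be told apart in these folds, and early passages were not measured. SPP1 fell by 5.61 on the log2 scale in PPDO (SE 0.52, adjusted p = 0.00224), WFDC2 fell by 4.25 (SE 0.60, adjusted p = 0.00642) and CFD fell by 7.14 (SE 0.77, adjusted p = 0.00323). TCN1 rose by 4.20 (SE 0.87, adjusted p = 0.0186) and GPRC5A by 3.87 (SE 1.04, adjusted p = 0.0383). MUC13 differed by 0.70 (SE 0.78, adjusted p = 0.505) and was not called. So 5 of 6 members were called, 2 of them higher and 3 lower. Over all 23514 genes tested 43.7% were called, 22.8% higher and 20.9% lower, and since it is not recorded whether this contrast played a part in choosing the genes, nothing is read from the count. The CPM of the groups did not overlap for these 5 genes, nor for 76.1% of all genes tested.

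The TCN1 call and the sign of MUC13 rested on the class of primary cells. With cluster 19 added to the ductal-like cells, an alternative chosen after the data had been seen, TCN1 was 0.60 higher in PPDO (SE 0.28, adjusted p = 0.147) and MUC13 was at -0.64 (SE 0.58, adjusted p = 0.42). TCN1 was at 0.98 and 0.65 with the members among the clustering genes and with doublets kept, 2 settings that were planned and in which it was not called. Leaving out PPDO 1 or PPDO 2 also ended the calls of TCN1 (adjusted p = 0.0547 and 0.0508) and of GPRC5A (adjusted p = 0.0798 and 0.105). With all primary cells in place of the ductal-like cells GPRC5A was not called (log2 fold change 3.62, adjusted p = 0.0959) and TCN1 was (1.97, adjusted p = 0.0168). SPP1, WFDC2 and CFD were called lower in all 13 alternatives of this fit.

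**Figure D5:**
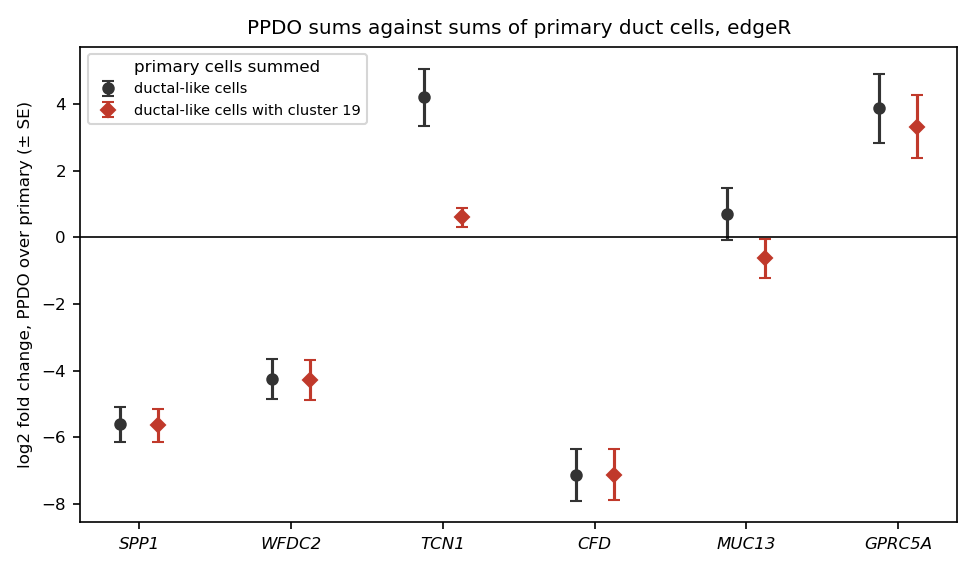
Log2 fold change of PPDO over primary duct cells (± SE of the edgeR fit, 2 libraries against 2), with ductal-like cells alone (circles) and with cluster 19 added to them (diamonds). SPP1, WFDC2 and CFD keep their place below 0, TCN1 falls from 4.20 to 0.60 and MUC13 crosses 0.

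Measured as shares of thinned cells, 5 of 6 genes had PPDO shares that did not overlap those of primary ductal-like cells, as did 67.0% of the 23514 genes tested, and nothing is read from the count. SPP1 was found in 2.60% ± 0.26 of PPDO cells and 87.5% ± 5.38 of ductal-like cells (mean ± SD, n = 2 libraries, exact permutation test, two-sided, p = 0.333, adjusted p = 0.4 over the 6 genes). WFDC2 was found in 3.31% ± 1.40 against 59.2% ± 5.70, and CFD in 1.83% ± 1.03 against 93.0% ± 1.17. GPRC5A was found in 8.57% ± 2.15 against 0.921% ± 0.699 and TCN1 in 4.84% ± 1.44 against 0.469% ± 0.302. MUC13 overlapped, at 0.513% ± 0.204 against 0.598% ± 0.604. With 2 libraries against 2 the test cannot go below 0.333, which each of the 5 genes reached. In PPDO cluster 7 alone SPP1 was found in 38.02% ± 2.66 and CFD in 28.3% ± 10.7 of thinned cells.

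The genes of the pathways to which the members belong were taken from lists, of which 57 of 79 symbols were matched in the feature table and 55 passed the filter on low counts. Of these 55, 33 were called, 13 higher and 20 lower in PPDO, with a median log2 fold change of -0.27 beside 0.01 over all genes tested. Beside these counts stand the 43.7% of all genes tested that were called, 22.8% higher and 20.9% lower, and no list is read as standing apart from them. Among the SPP1 receptors 3 of 10 rose and 3 fell. ITGB6 rose by 1.63 (adjusted p = 0.00432) and ITGAV by 1.41 (adjusted p = 0.00313), ITGA5 fell by 7.26 (adjusted p = 0.00360) and ITGA9 fell by 1.44 (adjusted p = 0.00302). The calls of ITGB6 and ITGA9 were lost with all primary cells in place of the ductal-like cells, at log2 fold changes of -0.26 and -0.86. CD44 was not called, at 382 and 396 CPM in PPDO and 378 and 327 CPM in ductal-like cells. Of the relatives of SPP1 in the SIBLING family of bone and tooth matrix proteins DSPP, IBSP and DMP1, 3 of 4, fell, DSPP by 2.07 and IBSP by 1.19. These calls were weak, since 0 of 4 were called with the replicate block, without PPDO 1, without PPDO 2, without primary pancreas 1 and with all primary cells, and 1 of 4 without the filter on low counts.

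From a list of protease inhibitors set beside WFDC2, SLPI, WFDC1, EPPIN, SPINT1 and SPINT2 were tested. SPINT1 and SPINT2 have no whey acidic protein domain and are not relatives of WFDC2. SLPI rose by 6.64 (148 and 284 CPM against 3.55 and 2.24 CPM) and WFDC1 by 5.40 (52.0 and 36.2 CPM against 1.88 and 0.7997 CPM), and none of the 5 fell. With all primary cells both lost their calls, at log2 fold changes of 4.28 and 0.44. Of 9 genes of vitamin B12 binding and uptake 1 rose and 4 fell. LRP2 (megalin), the endocytic receptor for TCN2-bound vitamin B12 and many other ligands, was at 0.236 and 0.210 CPM in PPDO and 401 and 534 CPM in ductal-like cells (log2 fold change -10.57). CUBN fell by 3.11, and MMACHC, which processes the vitamin inside the cell, rose by 1.23 (adjusted p = 0.0314). The MMACHC call was lost without PPDO 1, without PPDO 2 and with all primary cells (adjusted p = 0.127, 0.109 and 0.141). Of the 6 complement genes tested 2 fell and none rose, with C3 lower by a log2 fold change of -4.66 (8.66 and 7.70 CPM against 350 and 199 CPM) and C5 by -1.85, a call that was lost with all primary cells (-1.08). CFB, the substrate of CFD, was at 2.70 and 1.49 CPM in PPDO and 1.97 and 0.640 CPM in ductal-like cells and was not called. Of 12 other mucin symbols listed, MUC13 itself not among them, 2 were matched and 1, MUC15, passed the filter. MUC15 was called on 1 UMI or fewer in each primary sum, so no fold is given, and the call was lost without PPDO 2 (adjusted p = 0.0731) and with all primary cells. GPRC5B fell by 1.58, a call lost with all primary cells (-0.74), and GPRC5C and GPRC5D were not called. CD44, CFB, GPRC5C and GPRC5D were called higher without primary pancreas 1 (adjusted p = 0.0126, 0.0435, 0.00181 and 0.0364). Of 17 secretory epithelium genes tested 6 rose and 7 fell. TFF3 rose by 7.30 (21.4 and 9.58 CPM against 0.162 and 0.0800 CPM) and ST6GALNAC1, which builds sialylated mucin sugars, by 4.98, and the ST6GALNAC1 call was lost with all primary cells. PIGR, the receptor that carries secretory immunoglobulins across epithelium, fell by 6.86 (0.252 CPM in each PPDO library against 38.9 and 41.5 CPM) and the trefoil peptide TFF2 fell by 5.01. TFF3 and PIGR were among the leading genes of cluster 19, and the TFF3 value depended on that cluster. With cluster 19 added to the ductal-like cells TFF3 rose by 3.07 (adjusted p = 0.00809), with the members among the clustering genes by 3.62 and with doublets kept by 3.11. PIGR fell by 7.09 with cluster 19 added. In each of these 3 settings 5 secretory genes rose and 8 fell. With cluster 19 added, LGALS4, a galectin, lost its call (from 2.35 to 0.38, adjusted p = 0.496) and OLFM4 fell by 2.11 (adjusted p = 0.0282).

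Markers of other cells were measured in the compared sums. In ductal-like cells of primary pancreas 1 and 2 the 15 endocrine markers summed to 181 and 8064 CPM, and the 9 matched acinar markers to 616 and 465 CPM. In PPDO the endocrine markers summed to 8.18 and 8.80 CPM and the acinar markers to 35.4 and 39.9 CPM. The endothelial and adipocyte lists were also lower in PPDO, and the stellate and lymphoid lists overlapped. The schwann list was higher in PPDO, at 3776 and 3642 CPM against 914 and 1208 CPM, most of it from ERBB3, a receptor that epithelia also make (3636 and 3499 CPM against 816 and 1055 CPM). The myeloid list was higher as well, at 28.0 and 23.7 CPM against 5.89 and 4.56 CPM. The part of these lists in the member levels was not tested, and MUC13, which endocrine-like cells had, was at 0.920 CPM in the ductal-like cells of primary pancreas 2.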

How the data were processed

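Single-cell matrices of 2 PPDO and 2 primary pancreas libraries were used, with groups from the labels. The deposited values are whole counts of UMIs per feature and barcode, which the authors made with Cell Ranger 7.1.0 on Sscrofa11.1 with extended 3' ends. The values are not corrected for free RNA. Libraries held 9853, 8071, 6999 and 7657 barcodes and 366263520, 316018482, 87043513 and 138928395 UMIs. The 56060 features were summed to 30282 genes. Cells were kept with at least 1000 features in PPDO, 400 in primary pancreas 1 and 800 (and 3000 UMIs) in primary pancreas 2, at most 9000 features, and under 3% (PPDO) or 8% (primary) mitochondrial UMIs, with the limits of the study's animals assigned to the primary libraries by number, which the labels do not state. Scrublet scores over 0.25 and 0.15 removed 84 and 141 cells of primary pancreas 1 and 2, and none were removed from PPDO. Clusters were made with Scanpy 1.11.5 and leidenalg 0.10.2 (2000 variable genes, 20 components, 15 neighbours, resolution 0.5) without the 6 genes. A name needed at least 3 markers and, in clusters with under 0.333 of the depth of their libraries, a marker of the list among the 10 leading genes, and the limits for names were chosen with the clusters already in view. Sums per library were tested with edgeR 4.0.16 (quasi-likelihood, Benjamini-Hochberg over all genes) in R 4.3.3, with DESeq2 1.42.0 as an alternative, and shares with an exact permutation test. On simulated data of 2 against 2 libraries with a dispersion of 0.1 and 23719 genes, edgeR recovered 54% of genes changed 4-fold and 100% of those changed 16-fold, with 5 false calls. The genes named are the 6 members, the 3 genes most like each over PPDO clusters, from each list of related function up to 2 called genes higher and 2 lower with the largest changes, and the markers that name a class. Likeness was ranked over genes with a mean of at least 10 CPM over PPDO clusters. CD44, CFB, GPRC5C, GPRC5D, DMP1, LGALS4 and OLFM4, and the genes given for cells with SPP1 and WFDC2, were chosen after their values were seen. The members and lists were chosen with earlier results of these data known. The levels of some markers are not reported here.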

Additional observations from a re-analysis of the deposited data

How the results depend on the processing

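SPP1, WFDC2 and CFD were called lower in PPDO in all 13 alternatives of the fit. Leaving out each library in turn gave 3 to 5 members called, 4835 to 10736 genes called, 23 to 35 genes of the role lists, ratios of SPP1 with WFDC2 of 6.15 to 7.55 and ratios of WFDC2 in cluster 7 over other PPDO cells of 25.4 to 30.4. The count of 3 came without PPDO 1 or PPDO 2, where 5252 and 4835 genes were called, and without primary pancreas 1 all 3 GPRC5 family genes were called, against 1 with all libraries. Without PPDO 1 and without PPDO 2, 5 and 6 secretory genes were higher and 4 and 4 lower. A lone library is assumed to vary like the other group. With all primary cells 6358 genes, 4 members (not GPRC5A or MUC13) and 16 role list genes were called. In that fit 3 secretory genes were higher and 4 lower, and no vitamin B12 gene was higher. None of the SIBLING, protease inhibitor or GPRC5 family list genes was called in that fit. MUC13, not called in any of these fits, had log2 fold changes of -0.11 with the members among the clustering genes, -0.59 with doublets kept, -2.27 with all primary cells, -0.64 with cluster 19 added, and -0.15 to 1.94 when a library was left out. The ratio of SPP1 with WFDC2 was 11.3 at 1000 UMIs, 3.64 at 10000, 1.84 without thinning and 2.26 without cluster 7. The WFDC2 ratio of its highest cluster, cluster 7 here, was 31.5 at resolution 0.3, 25.2 at resolution 0.8, 32.3 with the members among the clustering genes and 32.1 without suspected doublets. Where not stated otherwise, the cause of a change was not tested. Genes at a few UMIs in a sum, such as TCN1 and MUC13 in primary pancreas 2, are limited by depth.

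The replicate numbers of the labels join libraries of different pigs and cultures. The deviations of PPDO 1 and primary pancreas 1 from their group means had a correlation of 0.000818 over 19939 genes. This single value over all genes cannot show whether some genes share a batch, which was not tested. With the replicate block 5 members, 8316 genes and 30 role list genes were called, and the 3 SIBLING calls were lost.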
